A study of Danio rerio with 7 samples.

Results

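Cranial neural crest (NC) cells of zebrafish embryos at 14 hours post fertilization (hpf) were compared by their number of captured transcripts of tfec, a transcription factor gene. An NC cell was a 14 hpf cell with at least 1 unique molecular identifier (UMI, which marks 1 captured transcript) of at least 3 of 7 crest genes (foxd3, tfap2a, twist1b, sox9b, snai1b, pax3a and inka1a) and with 0 UMIs of 5 genes of other tissues (epcam, cdh5, spi1b, myl7 and elavl3). By that rule 223 of the 354 cells of the 14 hpf library were NC cells (63.0%). Of these, 20 cells had at least 2 tfec UMIs and are called tfec cells here, and 164 cells had 0 and are called zero cells. These 184 cells are compared, out of 2854 cells in the whole series. The 39 NC cells with exactly 1 tfec UMI were kept apart and are shown beside both groups.

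All cells came from untreated embryos of 1 transgenic line, Tg(sox10:nEOS)w18, in which the sox10 promoter drives a photoconvertible nuclear protein. The crest stream that enters the first pharyngeal arch was photoconverted, dissociated, sorted by fluorescence and profiled by droplet single-cell RNA sequencing at 12, 14, 18, 20, 24 and 30 hpf, and an 18 hpf library was made a second time with a later chemistry. The sort on a sox10 reporter limits the sample to cells that had made the reporter, and the embryos of a stage were pooled into 1 library. The 7 libraries held 131 to 979 cells, with a median of 10807.5 UMIs per cell in the 14 hpf library and up to 23038 in the others. Because both groups came from 1 library and were chosen by a measured value, the 14 hpf comparison is a description with no test, and every interval at 14 hpf covers counting error only. The same contrast, with the same NC rule, was tested across the 18 hpf libraries, whose cells did not enter the 14 hpf comparison.

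The neural crest arises at the border of the neural plate, where Wnt and BMP signals and the border genes of the Msx and Pax3/7 families act, and its cranial cells go on to form the jaw skeleton, pigment cells, glia and neurons. Cells on the skeletal path switch on Twist and Dlx genes as they fill the pharyngeal arches. The protein made from tfec belongs to the MiT family of basic helix-loop-helix leucine zipper factors, as does Mitfa, the melanophore regulator. In zebrafish tfec is known from early crest and pigment progenitors and is needed for iridophores, the reflective pigment cells.

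Transcripts of tfec were rare and appeared in a narrow span of stages. At 12 hpf 0 of 181 NC cells had at least 2 tfec UMIs, which allows a share of up to 1.66%. At 14 hpf the share was 8.97% (20 of 223 cells, exact 95% interval 5.56 to 13.5). At 18 hpf it was 5.77% in the first library (6 of 104 cells, 2.15 to 12.1) and 16.6% in the second (59 of 355 cells, 12.9 to 20.9). It was 0.866% at 20 hpf (2 of 231 cells), and 0 of 93 cells at 24 hpf and 0 of 20 at 30 hpf reached 2 UMIs. The level summed over all NC cells had the same shape, with tfec at 3.05 CPM (UMIs of the gene scaled to a common total) at 12 hpf, 31.9 at 14 hpf, 16.0 and 52.2 in the 2 libraries at 18 hpf, and 2.06 at 20 hpf. When every cell was thinned at random to 5000 UMIs, the share of cells with at least 2 tfec UMIs dropped. It was 2.24% at 14 hpf (5 cells), and 0.962% and 8.17% in the first and second 18 hpf libraries. At 20 hpf it was 0, as at 12, 24 and 30 hpf. The order of the 14 hpf and the 18 hpf libraries was kept, on few cells.

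**Figure D1:**
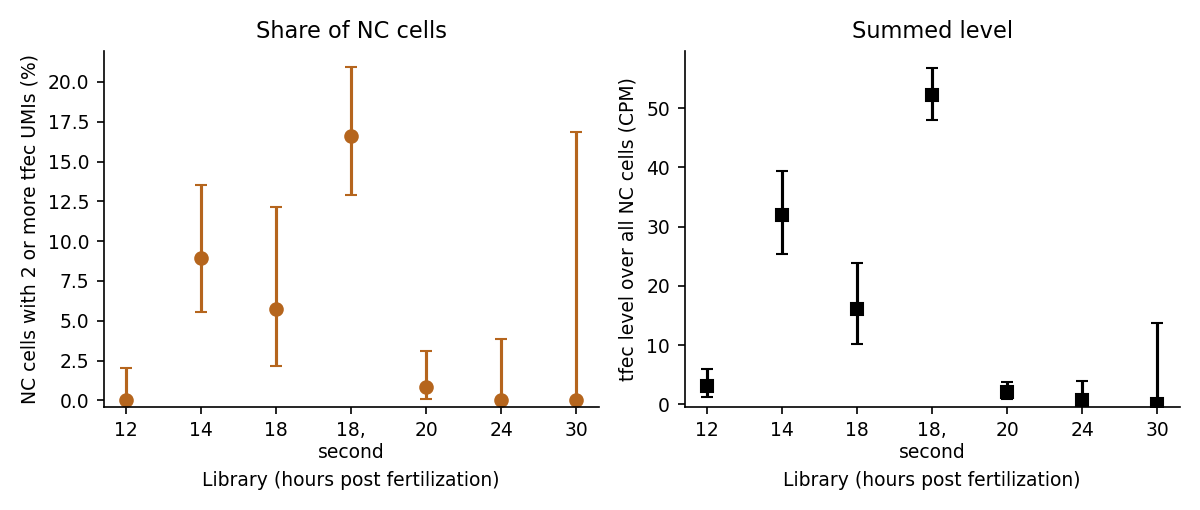
Share of NC cells with at least 2 tfec UMIs (left, percent) and summed tfec level (right, CPM) in each of the 7 libraries, in order of stage, with exact 95% counting intervals. The 14 hpf library (8.97%, 31.9 CPM) and the second 18 hpf library (16.6%, 52.2 CPM) stand above those at 12, 20 and 24 hpf, while the 20 cells at 30 hpf give a wide interval.

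Most tfec cells sat just inside the threshold. Of the 20 tfec cells, 15 had exactly 2 UMIs and 5 had 3, so the members just inside hold 2 and the nearest cells outside hold 1. NC cells had a mean of 0.377 tfec UMIs, with a variance over mean of 1.34 as deposited and 1.12 thinned, where counting error alone gives 1. Zero cells are thus cells with no captured tfec UMI and can include cells that express tfec. Any tfec UMI was present in 59 of 223 NC cells (26.5%, 20.8 to 32.8, median depth 11638 UMIs). The same share was 6.31% in the 111 cells of the 14 hpf library that carried a gene of another tissue (7 cells, 2.57 to 12.6, median depth 9570 UMIs), and 0 of 20 in the cells with too few crest genes (median depth 9798 UMIs). The share in NC cells was thus above that in the sorted cells set aside. Depth differed little between the groups, with medians of 11925 UMIs in tfec cells and 11241.5 in zero cells, and after thinning the medians were 1473 and 1434.5 genes detected. Mitochondrial genes took a median of 1.27% of UMIs in tfec cells and 1.31% in zero cells, and ribosomal protein genes 33.7% and 34.5%. A doublet caller marked 0 of the 20 tfec cells and 2 of the 164 zero cells.

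At 14 hpf the tfec cells carried more transcripts of the neural plate border genes msx1b, pax3a and msx3 and of several Wnt feedback genes. They carried fewer of the pharyngeal arch mesenchyme genes dlx2a and twist1a. A gene was called when its level in the thinned cells differed by more than 1.5-fold and the exact Poisson 95% intervals of both sums stood apart. Among 2157 genes with at least 40 thinned UMIs, 26 were higher in tfec cells (1.21%) and 19 were lower (0.881%). By fold alone, whatever the intervals, 9.41% of genes were higher and 9.74% lower. The median log2 ratio over all genes tested was 0.02. Thinning discards most of the UMIs. Without it all 45 called genes had the same sign, but only 12 of the 26 higher genes and 11 of the 19 lower ones met the same 2 criteria. Each value below is therefore given on the counts as deposited, and log2 ratios are those of the thinned cells with 10 CPM added unless said otherwise.

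Among the genes higher in tfec cells, the border genes msx1b and pax3a had the highest log2 ratios, 2.95 and 2.17. The homeobox gene msx1b had 76 UMIs in 20 tfec cells, a summed level of 305 CPM (240 to 382), against 76 UMIs in 164 zero cells and 40.5 CPM (31.9 to 50.7), a ratio of 7.53 (5.41 to 10.5). The gene was detected in 16 of 20 tfec cells and 42 of 164 zero cells, with a lowest, median and highest cell of 0, 5 and 9 UMIs in tfec cells and 0, 0 and 7 in zero cells. Single cells of the groups thus overlapped although the sums stood far apart. The paired box gene pax3a reached 606 CPM in tfec cells (514 to 711) and 141 CPM in zero cells (124 to 159), a ratio of 4.31 (3.50 to 5.28). Every tfec cell had pax3a, with 1 to 17 UMIs and a median of 6.5, while 73 of 164 zero cells had it, with a median of 0 and a highest cell of 15. Cells with 1 tfec UMI lay between the groups for both genes, at 164 CPM for msx1b and 458 CPM for pax3a. Cells with 3, 2, 1 and 0 tfec UMIs had 354, 288, 164 and 40.5 CPM of msx1b.

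The border gene msx3 and the early crest gene foxd3 were also higher in tfec cells, by less. The Msx gene msx3 had 269 CPM in tfec cells and 112 CPM in zero cells, a log2 ratio of 1.20, and was detected in 16 of 20 and 79 of 164 cells. The cells were unequal, with a median of 1 UMI and a highest of 16 in tfec cells and a median of 0 and a highest of 14 in zero cells. The forkhead gene foxd3, an early crest specifier, had 229 CPM in tfec cells and 111 CPM in zero cells, a ratio of 2.05 (1.5 to 2.76). Its log2 ratio was 1.82 in the thinned cells and 0.98 without thinning, so its size depended on the thinning. The list of 17 border genes had 3 members with enough UMIs, of which msx1b and msx3 were called higher. The third, zic2b, was called in neither direction (log2 ratio 0.07), and pax3a is not on that list.

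**Figure D2:**
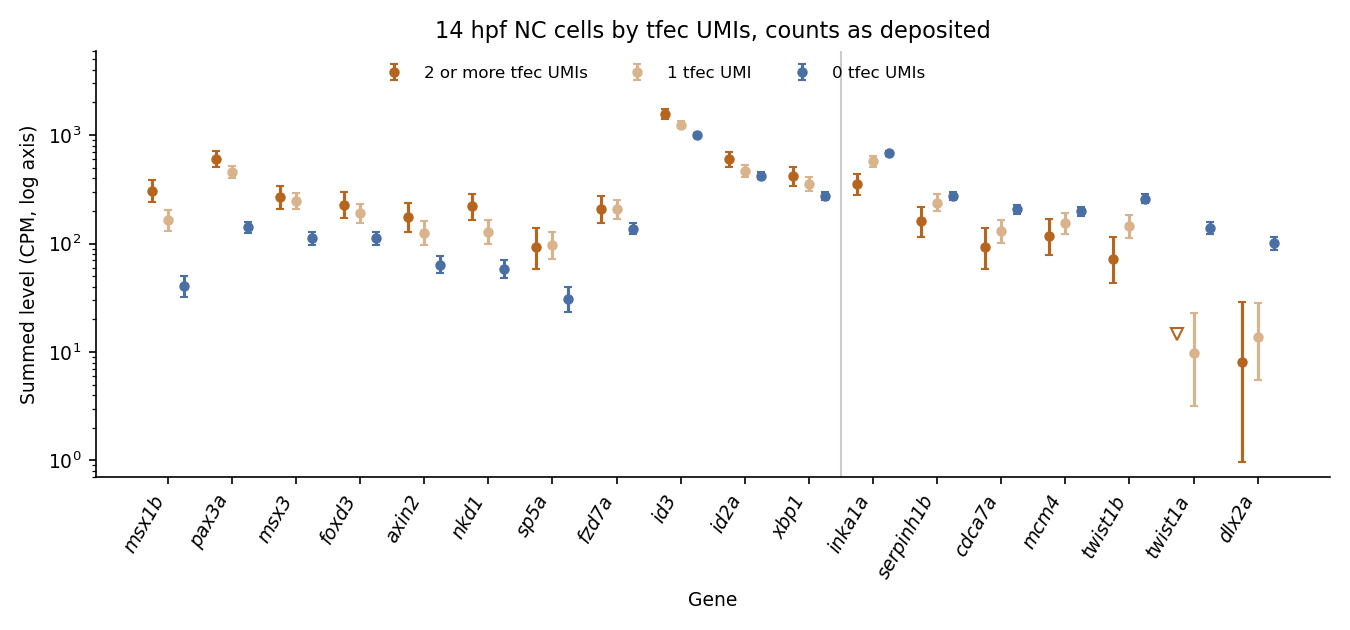
Summed level of 18 genes (CPM of the counts as deposited, log axis) in 14 hpf NC cells with 2 or more, 1 and 0 tfec UMIs, with exact Poisson 95% intervals. An open triangle is the upper limit of a sum of 0 UMIs, and the grey line parts the genes higher in tfec cells from those lower in them. msx1b runs 305, 164 and 40.5 CPM and dlx2a 8.03, 13.7 and 100 CPM.

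Most of the Wnt feedback and pathway genes with enough UMIs were higher in tfec cells. Of 20 listed Wnt target and pathway genes, 6 had enough UMIs. Of these 6, 5 were higher in tfec cells, and the median log2 ratio of the 6 was 1.47. In a second random thinning sp5a and fzd7a were not called, and each was called in 7 of 13 other settings. The 5 were msx1b, also a border gene, together with nkd1, axin2, sp5a and fzd7a. The Dishevelled antagonist gene nkd1 had 221 CPM in tfec cells (166 to 288) and 58.7 CPM in zero cells (48.2 to 70.7), a ratio of 3.77 (2.67 to 5.25). It was detected in 19 of 20 tfec cells and 59 of 164 zero cells. The scaffold gene axin2, a negative regulator of beta-catenin, had 177 CPM in tfec cells and 64.0 CPM in zero cells, a ratio of 2.76 (1.91 to 3.93). The transcription factor gene sp5a had 92.4 CPM in tfec cells and 30.9 CPM in zero cells, with UMIs in 10 of 20 and 32 of 164 cells. The receptor gene fzd7a differed least of the called members, at 209 CPM in tfec cells and 138 CPM in zero cells, and the log2 ratio was 0.94 thinned and 0.57 without thinning. The sixth, ccnd1, a G1 cyclin gene, was called in neither direction (log2 ratio 0.36). The effector gene lef1 had too few UMIs to be called, at 10 UMIs (40.2 CPM) in tfec cells and 42 UMIs (22.4 CPM) in zero cells.

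The BMP-responsive inhibitors of differentiation were unequal. id3 had 1574 CPM in tfec cells (1422 to 1738) and 999 CPM in zero cells (954 to 1045), a log2 ratio of 0.74. id2a had 598 and 424 CPM, a log2 ratio of 0.73 that was 0.49 without thinning. id1 was at 3153 CPM in tfec cells and 3267 CPM in zero cells, a log2 ratio of -0.05. Of the 4 genes of this list with enough UMIs, id2a and id3 were called higher and none was called lower. The unfolded protein response factor gene xbp1, which the study lists among its pigment genes, had 418 CPM in tfec cells and 275 CPM in zero cells (log2 ratio 0.76). The growth factor gene mdkb had 530 and 368 CPM (0.73). Over 13 other settings id3 was called in 9, xbp1 in 8, and id2a and mdkb in 7 each. In the second random thinning id3 was not called, and without thinning id2a and mdkb were not.

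The arch mesenchyme genes dlx2a and twist1a ran the other way. Of the 14 genes of the arch list only these 2 had enough UMIs, and 8 had 0 UMIs in both groups. The homeobox gene dlx2a, an arch regulator, had 2 UMIs in the 20 tfec cells, both in 1 cell, a level of 8.03 CPM (0.973 to 29.0), against 188 UMIs in 73 of the 164 zero cells and 100 CPM (86.4 to 116). The basic helix-loop-helix gene twist1a had 0 UMIs in 20 tfec cells and 260 UMIs in 58 of 164 zero cells (139 CPM). Set against a floor of 3 UMIs over the tfec group, twist1a was at least 11.5-fold lower. Detection in 0 of 20 cells allows a share of up to 15%. The paralog twist1b, one of the genes of the NC rule, had 72.3 CPM in tfec cells (42.8 to 114) and 260 CPM in zero cells (238 to 284) and was found in 7 of 20 and 130 of 164 cells. Cells with 1 tfec UMI had 13.7 CPM of dlx2a, 9.78 CPM of twist1a and 145 CPM of twist1b. In zero cells these genes were uneven too, with twist1a at a median of 0 and a highest cell of 24 UMIs.

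The remaining lower genes were mixed. inka1a, which encodes an inhibitor of a p21-activated kinase and is also in the NC rule, had 353 CPM in tfec cells and 678 CPM in zero cells (log2 ratio -1.06). serpinh1b, a collagen chaperone gene, had 161 and 274 CPM, and ptgdsb.1, a prostaglandin D synthase gene, had 289 and 466 CPM. Of 19 S phase genes with enough UMIs, 2 were lower, mcm4 of the replicative helicase and cdca7a, and 13 lay below 0. cdca7a had 92.4 CPM in tfec cells and 207 CPM in zero cells. mcm4 had 116 and 198 CPM, and its log2 ratio was -1.35 thinned and -0.72 without thinning. None of 7 G2 and M phase genes was called, and all 7 lay above 0.

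**Figure D3:**
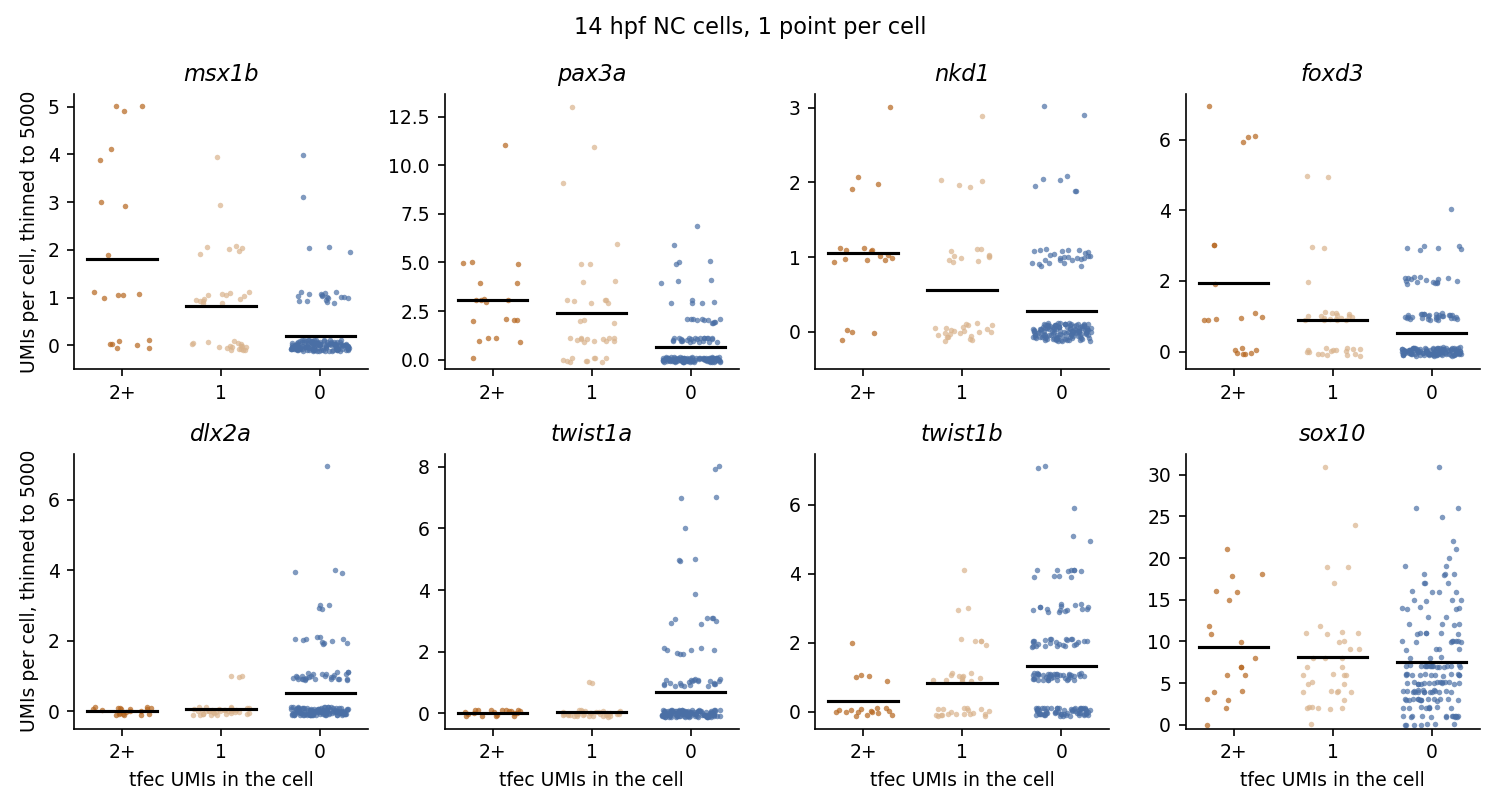
Thinned UMIs per cell (5000 UMIs per cell, points spread sideways and slightly up or down for sight) of msx1b, pax3a, nkd1, foxd3, dlx2a, twist1a, twist1b and sox10 in 14 hpf NC cells with 2 or more, 1 and 0 tfec UMIs; black lines are means. Cells of the groups overlap for the higher genes, and no tfec cell keeps a dlx2a or twist1a UMI.

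The NC rule itself uses 4 of the called genes, foxd3 and pax3a among the higher and twist1b and inka1a among the lower ones, so cells can enter the rule through different members of it. The other 3 rule genes were not called. tfap2a had 329 CPM in tfec cells and 332 CPM in zero cells, sox9b 80.3 and 79.5 CPM, and snai1b 313 and 428 CPM. The SoxE gene sox10, whose promoter drives the reporter, had 1847 CPM in tfec cells (1682 to 2024) and 1507 CPM in zero cells (1452 to 1564) and was found in 20 of 20 and 162 of 164 cells. Asking for 4 of the 7 genes left 17 tfec cells and 156 zero cells, with 19 genes higher and 11 lower. Over 13 other settings foxd3, msx3 and pax3a were called in each, msx1b and nkd1 in 11, axin2 in 10, and dlx2a, twist1a, twist1b and inka1a in 11. The settings with 5 or 20 CPM added, or a minimum of 20 or 1 thinned UMIs, reused the same thinned cells. They kept all 26 higher and 19 lower calls and so count toward every called gene.

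CR318588.4 and hist1h4l.11 were also called in most settings. The unnamed gene CR318588.4 had 438 CPM in tfec cells and 186 CPM in zero cells, but the median tfec cell had 1 UMI and the highest alone held 41 of the 109 UMIs. The median zero cell had 0 and the highest 36. The histone H4 gene hist1h4l.11, whose copies are nearly identical and can share reads, had 333 CPM in tfec cells and 193 CPM in zero cells.

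Several genes with large thinned ratios shrank on the counts as deposited and were called in 4 to 7 of the 13 other settings. Those called in 4 were mis12, kmt2cb, snw1, ccni, mapre1b and dap1b, and these 4 settings were the ones that reused the same thinned cells. Also called in these 4 settings alone were lbr, ncoa5, ndufs6 and tubb4b among the higher genes, and atf4a, gpx4b and morf4l1 among the lower. Among the higher ones, si:zfos-1192g2.3 had 92.4 CPM in tfec cells and 48.5 CPM in zero cells, ptbp2b, an RNA-binding protein gene, 96.4 and 52.3 CPM, brd9, a chromatin remodelling gene, 92.4 and 50.7 CPM, and mis12, a kinetochore gene, 72.3 and 48.0 CPM. Among the lower ones, sox4a.1 had 32.1 and 89.1 CPM, kctd1 12.0 and 53.9 CPM, kmt2cb, a histone methyltransferase gene, 24.1 and 60.3 CPM, and the splicing factor gene snw1 44.2 and 91.7 CPM. ccni (32.1 CPM in tfec cells and 52.3 CPM in zero cells), mapre1b (80.3 and 103 CPM) and dap1b (116 and 121 CPM) had log2 ratios of -0.56, -0.33 and -0.05 without thinning, in that order. In all, 6 of the lower genes had no thinned UMI in tfec cells, so their log2 ratios depend on the CPM added.

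The same genes were counted cell by cell. pax3a and msx1b were found together in 16 of 20 tfec cells (80%, 56.3 to 94.3) and 32 of 164 zero cells (19.5%, 13.7 to 26.4). At least 2 of axin2, nkd1 and sp5a were found in 17 of 20 tfec cells (85%, 62.1 to 96.8) and 43 of 164 zero cells (26.2%, 19.7 to 33.6). dlx2a or twist1a was found in 1 of 20 tfec cells (5%, 0.127 to 24.9) and 95 of 164 zero cells (57.9%, 49.98 to 65.6). After thinning these shares were 60% and 8.54%, 45% and 13.4%, and 0 and 44.5%, in the same order. The zero cells were mixed, since of the 32 that held pax3a and msx1b together 9 also held dlx2a or twist1a. pax3a and dlx2a were found together in 1 of 20 tfec cells and 26 of 164 zero cells.

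Of the 26 higher genes, 24 also lay above the zero cells in the 39 cells with 1 tfec UMI, and 8 of these with intervals apart. Of the 19 lower genes, 15 lay below, and 2 with intervals apart. The same zero cells had been used to call these genes, which favours such counts, so they are no independent evidence. The share over all genes tested was not counted. In cells with 3, 2, 1 and 0 tfec UMIs, nkd1 had 231, 217, 129 and 58.7 CPM and twist1b 30.8, 86.9, 145 and 260 CPM. Not every gene was ordered in this way, with sp5a at 123, 81.5, 97.8 and 30.9 CPM and id3 at 1032, 1766, 1252 and 999 CPM, and 5 cells make up the group with 3.

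Set beside the stage before, the tfec cells at 14 hpf had msx1b at a level near that of the whole 12 hpf crest, and pax3a, axin2 and nkd1 above it. Over all 181 NC cells at 12 hpf, msx1b was at 330 CPM, pax3a at 351 CPM, axin2 at 120 CPM and nkd1 at 94.9 CPM, while dlx2a was at 6.48 CPM and twist1a at 49.9 CPM. foxd3, at 619 CPM at 12 hpf, was above both 14 hpf groups. Each stage is 1 library, so stage and library cannot be told apart.

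The other lists held few calls at 14 hpf. Of 4 Notch pathway genes with enough UMIs, her4.1, her6, her9 and her15.1, none was called and all 4 lay above 0, and her4.1 and her15.1 belong to a cluster of near-identical copies that can share reads. None of 2 crest receptor genes and 3 AP-2 and SoxE genes was called, and no gene of axial identity had enough UMIs. Of 2 adhesion and migration genes 1, twist1a, was lower. On lists that the study chose on these samples, which are not independent evidence, 2 of 12 early NC genes were higher (foxd3 and pax3a), 1 of 3 pigment genes (xbp1), and 1 of 2 neural and glial genes (foxd3), while 1 of 6 skeletal genes was lower (dlx2a). Of 4 further NC markers tested, id3 was higher.

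Most pigment genes were at or near 0 UMIs in the tfec cells at 14 hpf. mitfa had 0 UMIs in all 223 NC cells, and 0 of 20 tfec cells allows up to 15% of cells with a UMI while 0 of 164 zero cells allows up to 1.83%. Such limits hold for cells with a captured UMI and not for cells that express the gene. gch2 and pts, enzyme genes of pteridine synthesis in xanthophores, and the melanosome transporter gene slc45a2 were at 0 UMIs in both groups. pax7a had 1 UMI in tfec cells and 2 in zero cells, and pax7b had 5 and 14. The MiT relatives tfe3a, with 2 UMIs in tfec cells and 5 in zero cells, and tfeb, with 1 and 0, were as rare. trpm1b, a melanophore channel gene, was the exception among the melanophore genes, with 12 UMIs and 48.2 CPM in tfec cells (24.9 to 84.2, 6 of 20 cells) and 21 UMIs and 11.2 CPM in zero cells (6.93 to 17.1, 11 of 164 cells). Summed over the melanophore list, where trpm1b gave 12 of 18 UMIs in tfec cells and 21 of 48 in zero cells, the level was 72.3 CPM in tfec cells (42.8 to 114, UMIs in 9 of 20 cells) and 25.6 CPM in zero cells (18.9 to 33.9, 26 of 164 cells). No gene of the melanophore and MiT family lists had enough UMIs to be called, and 2 of the xanthophore list had and were not called. Of 9 purine synthesis genes and 7 vacuolar ATPase and lysosome genes with enough UMIs, 0 were called, and the median log2 ratio of the 7 was 0.34 thinned and 0.10 without thinning. The NC identity of the cells was set by the rule and by the sort on the sox10 reporter.

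Markers of other tissues were low in both groups. Summed over their lists, epithelial markers were at 48.2 CPM in tfec cells and 84.3 CPM in zero cells, with 6 of 12 markers at 0 in tfec cells. Neural markers were at 64.3 and 83.2 CPM (9 of 11 at 0), otic markers at 76.3 and 91.7 CPM (5 of 8 at 0), endothelial markers at 4.02 and 16.0 CPM (8 of 9 at 0), and blood markers at 4.02 and 19.2 CPM (11 of 12 at 0). Cardiac markers were at 8.03 CPM in tfec cells and 0.533 CPM in zero cells, with 6 of 8 at 0 in tfec cells, head mesoderm markers at 4.02 and 2.13 CPM (8 of 9 at 0), and endoderm markers at 0 and 0.533 CPM. epcam, cdh5, spi1b, myl7 and elavl3 were at 0 by the rule. None of 9 early stress genes with enough UMIs was called.

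The contrast was then tested where the rule had not been applied to choose the genes. NC cells of each 18 hpf library were split in the same way, their counts were summed, and tfec cells were compared with zero cells by edgeR's quasi-likelihood test with the library as a block. The first 18 hpf library gave 6 tfec cells and 90 zero cells, and the second gave 59 and 282. A further 4 cells of the first library and 91 of the second had at least 2 tfec UMIs. They lay outside the NC rule and did not enter the test. Of 6857 genes tested, 321 were higher in tfec cells (4.68%) and 243 lower (3.54%) at a Benjamini-Hochberg adjusted p under 0.05. Of these 564, 518 had the same direction in both libraries, which calling them on the same libraries favours. The share over all genes tested was not counted. The 2 libraries leave 1 residual degree of freedom, so the very small p-values rest on the spread pooled over genes. The sums of 2 groups from 1 library share its pool of embryos. With the block, p-values set the difference between the groups against a spread between the 2 libraries that is mostly pooled over genes. A gene's own difference between the libraries enters little. twist1a, for one, had log2 ratios of -3.54 and -7.34 in the first and second library (10 CPM added). Without the library block edgeR called 0 genes, with 478 at an unadjusted p under 0.05, and DESeq2's Wald test with the block called 102, all among edgeR's.

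Of the 26 genes called higher at 14 hpf, 9 were also higher in tfec cells than in zero cells at 18 hpf (34.6%) and 1 was lower. Of the 19 called lower, 5 were lower in tfec cells at 18 hpf (26.3%) and 0 were higher. From here on, a gene that rose or fell was higher or lower in tfec cells than in zero cells of the same libraries. No change from 14 to 18 hpf is meant. Over the 2155 genes tested at both stages, 54 rose and 87 fell at 18 hpf, with a median log2 change of -0.16. The 9 were pax3a, msx1b, msx3, axin2, nkd1, id2a, id3, xbp1 and mdkb, and the 5 were twist1a, dlx2a, twist1b, cdca7a and inka1a. Of these, pax3a, twist1b and inka1a are genes of the NC rule that chose the cells, so they are not independent of it. DESeq2's Wald test kept 3 of the 9 (pax3a, msx3 and id2a) and 2 of the 5 (twist1a and dlx2a). edgeR on thinned cells or with at least 1 tfec UMI lost msx3, mdkb, twist1b and inka1a (with at least 1 tfec UMI also cdca7a). With no filter on low counts it lost mdkb, nkd1, twist1b and inka1a. nkd1 could be tested in 7 of 8 alternatives and passed in 4. pax3a had 294 CPM in tfec cells and 38.6 CPM in zero cells of the first library, and 486 and 6.92 CPM in the second. Its log2 change was 4.62 ± 0.40 (edgeR adjusted p = 5.03e-28). Here and below the value after ± is an SE derived from the log2 change and edgeR's F statistic. It rests on the spread pooled over genes and does not show the difference between the 2 libraries. msx1b had 270 and 142 CPM in the first library and 581 and 82.3 CPM in the second (1.91 ± 0.31, edgeR adjusted p = 7.33e-08). Of the Wnt genes, axin2 rose by 1.84 ± 0.43 (edgeR adjusted p = 0.000448) and nkd1 by 1.21 ± 0.41 (edgeR adjusted p = 0.0373). lef1, too rare to be called at 14 hpf, rose by 2.68 ± 0.44 (edgeR adjusted p = 8.65e-08). Both libraries agreed in direction for each of these 5 genes. DESeq2's Wald test also kept lef1 and gave adjusted p of 0.272 for msx1b, 0.480 for axin2 and 0.999 for nkd1.

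The arch genes twist1a and dlx2a were lower in tfec cells than in zero cells at 18 hpf. Their levels in the 18 hpf zero cells were above those of the 14 hpf zero cells. twist1a had 94.0 CPM in tfec cells and 1202 CPM in zero cells of the first 18 hpf library, and 3.65 and 2206 CPM in the second (log2 change -7.53 ± 0.32, edgeR adjusted p = 1.76e-112). dlx2a had 94.0 and 367 CPM in the first library and 76.0 and 647 CPM in the second (-2.90 ± 0.32, edgeR adjusted p = 3.36e-17). twist1b fell by 1.58 ± 0.47 on the log2 scale (edgeR adjusted p = 0.0122), with 23.5 and 134 CPM in the first library and 14.0 and 31.1 CPM in the second. DESeq2's Wald test kept twist1a (adjusted p = 1.38e-08) and dlx2a (0.00249) and not twist1b (0.470).

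Other genes called at 14 hpf did not pass at 18 hpf. foxd3 had 35.3 CPM in tfec cells and 121 CPM in zero cells of the first library, against 263 and 103 CPM in the second, opposite directions that gave a log2 change of 0.43 ± 0.37 (edgeR adjusted p = 0.704). sp5a (0.61 ± 0.43, edgeR adjusted p = 0.576) and fzd7a (-0.20 ± 0.40, edgeR adjusted p = 0.916) also ran in opposite directions in the 2 libraries. Of the lower genes, mcm4 (-0.91 ± 0.38, edgeR adjusted p = 0.148) and serpinh1b (-0.45 ± 0.40, edgeR adjusted p = 0.704) did not pass. The directions of serpinh1b were opposite too, with 306 CPM in tfec cells and 125 CPM in zero cells of the first library, and 22.5 and 69.3 CPM in the second. hist1h4l.11, higher at 14 hpf, fell by 1.09 ± 0.27 on the log2 scale (edgeR adjusted p = 0.00122), a call lost in 5 of 8 alternatives.

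**Figure D4:**
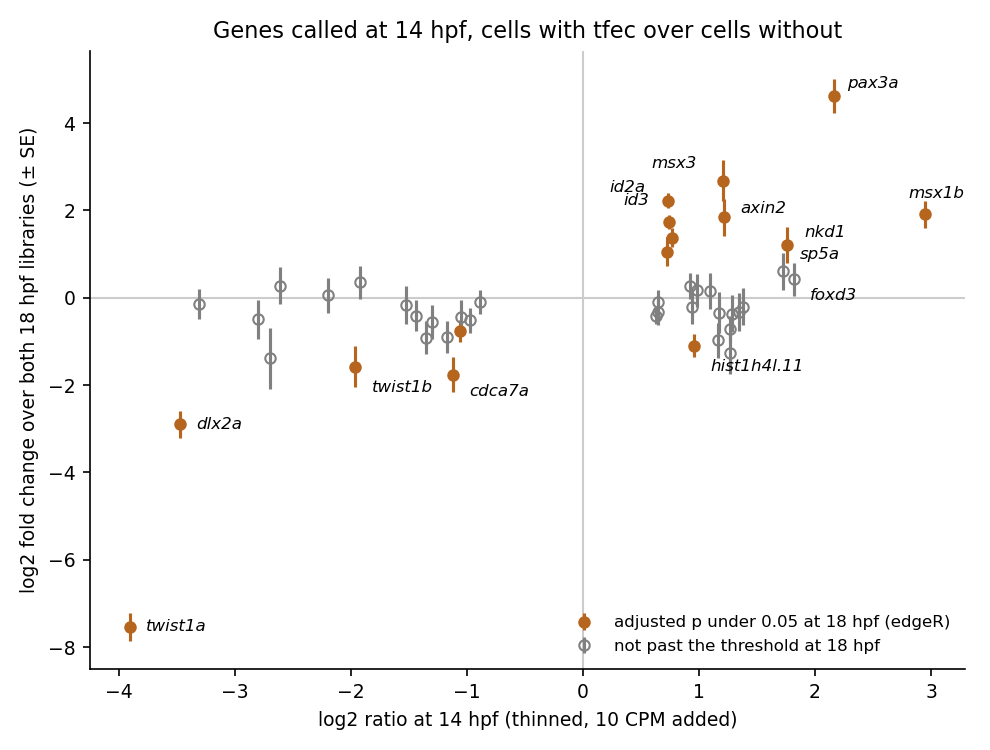
The 45 genes called at 14 hpf. The x axis is the log2 ratio of tfec cells over zero cells at 14 hpf (thinned, 10 CPM added). The y axis is the edgeR log2 fold change over both 18 hpf libraries, with bars of the SE derived from edgeR's F statistic. Filled points had an adjusted p under 0.05 at 18 hpf: pax3a at 4.62 is highest, twist1a at -7.53 lowest, and hist1h4l.11 lies in the opposite quadrant from its 14 hpf value.

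Relaxing the split to at least 1 tfec UMI let 4 libraries other than 14 hpf enter, at 12, 18 (both) and 20 hpf. Of 6661 genes tested there, 233 rose (3.50%) and 121 fell (1.82%). Of these 354, 199 had the same sign in all 4 libraries, which were also those that called them. The count of calls was carried by the second 18 hpf library: without it 3 genes rose and 0 fell at an adjusted p under 0.05. Of the 26 genes called higher at 14 hpf, 7 rose in this fit and 0 fell, and of the 19 called lower, 3 fell and 0 rose. pax3a rose by 3.53 on the log2 scale (edgeR adjusted p = 0.0129), msx1b by 1.61 (0.0337), axin2 by 1.77 (0.00144) and nkd1 by 1.22 (0.00884), while twist1a fell by 4.61 and dlx2a by 2.78 (0.000437 each).

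At 18 hpf pigment genes were higher in tfec cells. All 5 tested melanophore genes and 6 of 9 xanthophore and pteridine genes rose, and none fell. DESeq2's Wald test kept 2 of the 5 and 5 of the 6, losing pmela, gpr143, phlda1 and slc2a11b. The pteridine enzyme gene gch2 had 1537 CPM in tfec cells and 64.9 CPM in zero cells of the second library, with UMIs in 27 of 59 and 6 of 282 cells, and 1 and 2 UMIs in the first library (4.38 ± 0.37, edgeR adjusted p = 7.46e-29). The Pax3/7 gene pax7b had 118 and 13.1 CPM in the first library and 284 and 3.10 CPM in the second (5.2 ± 0.49, edgeR adjusted p = 4.26e-23), and was found in 42 of 59 and 6 of 282 cells of the second. pts (5.11 ± 0.55), pax7a (5.07 ± 0.48), the AP-2 gene tfap2e (5.21 ± 0.54), slc45a2 (4.43 ± 0.49) and trpm1b (3.88 ± 0.45) rose too. Of 15 iridophore and purine genes tested, 1 rose and 1 fell.

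mitfa was left out of the 18 hpf test by the filter on low counts and is given as counts. In the second 18 hpf library it had 269 UMIs in tfec cells (163 CPM, 145 to 184, 28 of 59 cells) and 12 UMIs in zero cells (1.43 CPM, 0.739 to 2.5, 8 of 282 cells). In the first library it had 0 UMIs in 6 tfec cells and 1 UMI in 90 zero cells. The 2 libraries of that stage differ in chemistry and depth, and in the number of tfec cells.

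**Figure D5:**
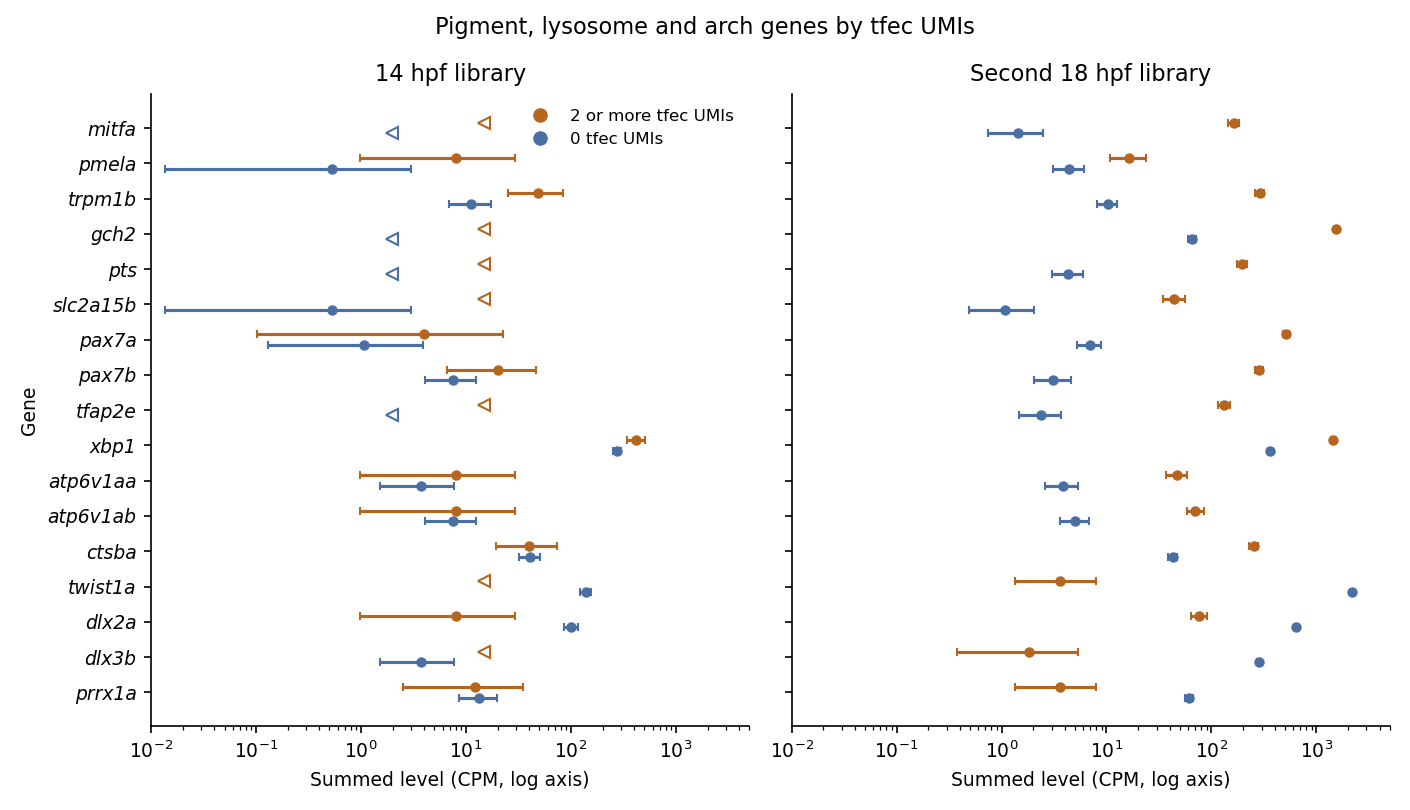
Summed level (CPM, log axis, exact Poisson 95% intervals) of 17 pigment, lysosome and arch genes in tfec cells (2 or more tfec UMIs) and zero cells (0) of the 14 hpf library (left) and the second 18 hpf library (right). Open triangles are upper limits of sums of 0 UMIs. mitfa, gch2 and pts are at 0 in both groups at 14 hpf and at 163, 1537 and 196 CPM in tfec cells at 18 hpf.

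Of 25 vacuolar ATPase and lysosome genes tested at 18 hpf, 19 rose and 0 fell, with a median log2 change of 1.95 against -0.12 over all genes tested. The proton pump subunit genes atp6v1ab (3.59 ± 0.44, edgeR adjusted p = 1.45e-13) and atp6v1aa (3.43 ± 0.46, edgeR adjusted p = 1.20e-11) and the cathepsin gene ctsba (2.20 ± 0.36, edgeR adjusted p = 9.68e-08) were among the 7 of these 19 that DESeq2's Wald test kept. It lost the other 12, such as atp6ap2, hexb and npc2. In the 14 hpf tfec cells atp6v1aa and atp6v1ab had 8.03 CPM each. sox10, at 2773 CPM in tfec cells and 706 CPM in zero cells of the first library and 1709 and 768 CPM in the second, rose by 1.39 ± 0.17 (edgeR adjusted p = 1.05e-14), and lost the call under DESeq2's Wald test (adjusted p = 0.423).

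Arch and skeletal genes were mostly lower in tfec cells at 18 hpf. All 6 tested genes of the arch list fell, dlx2a, dlx3b, dlx5a, prrx1a, twist1a and fli1a, and of 27 skeletal genes that the study chose on these samples, which makes the list no independent evidence of direction, 21 fell and 0 rose (median -3.36). DESeq2's Wald test kept 4 of the 6 and 8 of the 21. dlx5a, ccn1, foxc1b, six1a, fibina and foxc1a had 0 UMIs in the tfec cells of both libraries, so their fitted changes depend on the prior count and are not given as sizes. DESeq2's Wald test gave each of these 6 an adjusted p of 0.999. Of 20 S phase genes 12 fell and 0 rose (median -1.14), with 0 of the 12 kept by DESeq2's Wald test, and of 22 G2 and M phase genes 2 fell. Among the genes with the highest fitted change that rose were lrmp, mocos, which encodes a molybdenum cofactor sulfurase, CT025897.1 and the anion transporter gene slco1c1. lrmp had 82.3 CPM in tfec cells and 0.773 CPM in zero cells of the first library (7 and 1 UMIs) and 9.73 and 0 CPM in the second (16 and 0 UMIs). mocos, CT025897.1 and slco1c1 each had 1 UMI in tfec cells and 0 in zero cells of the first library. Their direction there rests on that 1 UMI.

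Signalling and migration genes were split at 18 hpf. Of 8 border genes tested, msx1b, msx3, pax7a, pax7b and ved rose and gbx2 fell, and of 8 Wnt genes 4 rose and 0 fell. Of 8 crest receptor genes, the neuregulin receptor gene erbb3b rose by 1.61 on the log2 scale, and ednrab, pdgfra and fgfr2 fell by 0.85, 1.36 and 1.91. Of 14 adhesion and migration genes, cdh6 and cxcl14 rose, and cdh11, snai2, twist1a, cxcl12a and mmp2 fell. Of 11 Notch genes, her4.1, her4.2 and her15.1 rose and her6 and notch2 fell. Of 9 BMP and Id genes, id2a and id3 rose and grem2b, a BMP antagonist gene, fell. Of 5 AP-2 and SoxE genes, tfap2b, tfap2e and sox10 rose, and 1 gene of axial identity did not pass. DESeq2's Wald test kept 0 of the crest receptor and Notch calls and 1 of the 4 Wnt calls. Of the genes that rose it kept 4 of 5 border genes and 2 of 3 AP-2 and SoxE genes. It also kept 1 of 2 adhesion and migration genes and 1 of 2 BMP and Id genes that rose. Among those that fell it kept gbx2, grem2b and 1 of 5 adhesion and migration genes. On the lists the study chose, 4 of 16 early NC genes rose and 0 fell, 11 of 14 pigment genes rose and 0 fell (median 3.23), and of 5 neural and glial genes 1 rose and 2 fell. Of the 8 further NC markers, sox10, id3 and pax7b rose and snai2 fell. On the study's lists DESeq2's Wald test kept 1 of 4 early NC and 6 of 11 pigment genes that rose. Of the neural and glial genes it kept 0 of the 1 that rose and 1 of the 2 that fell. Of the further NC markers it kept 1 of the 3 that rose and not snai2.

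Of the other tissues' markers, most tested genes of the otic and epithelial lists were lower in the 18 hpf tfec cells. Of 5 otic genes tested, eya1, six1b, dlx3b and tbx2b fell, and oc90 did not pass (log2 change 0.39). Of 2 epithelial genes krt8 and krt18a.1 both fell, while none of 2 neural genes and 1 blood gene passed. DESeq2's Wald test kept 2 of the 4 otic calls and 0 of the 2 epithelial calls. eya1, six1b and dlx3b are also used in the arches, and six1b, dlx3b and tbx2b are on the study's skeletal list. Of 18 early stress genes 2 rose, ddit3 (3.23 ± 0.43, edgeR adjusted p = 1.50e-11) and gadd45bb (2.19 ± 0.38, edgeR adjusted p = 7.00e-07). The part of these markers in the results was not tested.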

How the data were processed

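Single-cell libraries of photoconverted, sorted NC cells were processed by the authors with CellRanger against GRCz11 and aggregated, and the deposited values are UMI counts per gene and cell, already limited to called cells. The cell filter of the deposited table and the CellRanger version are not given in the sources used here. The timeline table held 17651 genes in 6 libraries, the table of the second 18 hpf library held 18597, and they were read separately. They shared 16600 gene names. Total counts per library ran from 1711154 to 23950255 UMIs, and 1 barcode was shared by 2 libraries (12 and 14 hpf). Intervals cover counting error only. 0 columns of per-sample values were left unassigned.

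NC cells were chosen as stated, and each was thinned without replacement to 5000 UMIs (seed 1). Genes with at least 40 thinned UMIs were called at 1.5-fold with exact Poisson 95% intervals apart. Log2 ratios had 10 CPM added. Doublets were called with Scrublet and kept, and removing them was an alternative. The members, the 30 gene lists (417 genes) and the tests were chosen with earlier results of these data known. By the rule for named genes the text names tfec and its MiT relatives, the genes of the NC rule, up to 6 members per list, the 10 highest and 10 lowest ratios called at 14 hpf, and the 6 largest changes each way at 18 hpf that ran the same way in both libraries. Other genes, such as trpm1b, hist1h4l.11 and list members called at 18 hpf, were named after their values were seen.

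Summed counts of the 18 hpf libraries were fitted with edgeR 4.0.16 (quasi-likelihood, TMM, filter on low counts, library as block, R 4.3.3), with DESeq2 1.42.0 as an alternative. A minimum of 10 cells per group had been set and left 1 library, so it was lowered to 5 after the cell numbers were known. SE values were the size of the log2 change divided by the square root of edgeR's F statistic. The fitting code was tested on simulated data. Python 3.11.15, numpy 2.4.6, scipy 1.17.1, pandas 2.3.3 and scanpy 1.11.5 were used. Alternatives were other depths and draws, other tfec thresholds, a stricter NC rule, other filters and pseudocounts, and leaving out a library. The labels do not say that libraries came from separate clutches, so p-values cover these libraries only. At 18 hpf they rest mostly on a spread pooled over genes, not on each gene's own spread between the libraries.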

Additional observations from a re-analysis of the deposited data

Results flagged for a closer look

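In the 14 hpf library 4 of the 131 cells outside the NC rule had at least 2 tfec UMIs, a signal in cells that the comparison did not use. Each had exactly 2 tfec UMIs, 5 to 7 of the crest genes, 13 to 64 sox10 UMIs and 4 to 11 pax3a UMIs, and was set aside for elavl3 (3 cells) or myl7 (1 cell). In the second 18 hpf library 91 of the 624 cells outside the rule had at least 2 tfec UMIs, and 90 of these were among the 574 cells with a gene of another tissue. The share outside the rule there was 14.6% (11.9 to 17.6), beside 16.6% (12.9 to 20.9) in NC cells.

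hist1h4l.11 had opposite signs at the 2 stages, with a log2 change of -1.09 in tfec cells over zero cells at 18 hpf and a log2 ratio of 0.96 at 14 hpf. The 18 hpf call was lost in 5 of 8 alternatives (DESeq2's Wald test, no filter on low counts, no library block, thinned cells and at least 1 tfec UMI). The difference between the stages was not tested, since 14 hpf is 1 library.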

How the results depend on the processing

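The 14 hpf counts of genes higher and lower, 26 and 19, were 14 and 10 with cells thinned to 3000 UMIs, 44 higher at 8000, 60 and 31 with no thinning, and 53 higher with a minimum of 1 thinned UMI. The lower genes numbered 11 each where tfec cells were chosen on thinned UMIs (5 cells), had at least 3 UMIs (5 cells) or met 4 of 7 crest genes. A second random draw called 34 and 15, of which 15 and 7 were shared with the first. Thinned shares of NC cells with at least 2 tfec UMIs were 2.24%, 0.962%, 8.17% and 0 at 14 hpf, in both 18 hpf libraries and at 20 hpf.

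Of 1092 values of 84 named genes under the 14 hpf alternatives, 996 stayed within the counting interval. The settings with a minimum of 20 or 1 thinned UMIs leave every ratio unchanged. Those with 5 or 20 CPM added cannot change its sign. Values of these settings are in all the counts of this paragraph and could not show a reversal. Of the 364 values of genes called at 14 hpf, 10 were opposite in sign and 1 was at 0, and of the 728 of genes not called 109 were opposite. Those of the called genes were ccni (0.24), dap1b (0.23), mis12 (-0.98) and si:zfos-1192g2.3 (-0.11) at 3000 UMIs, ccni (0.00) in the second draw, axin2 (-0.87), si:zfos-1192g2.3 (-0.36) and sp5a (-2.58) with cells chosen on thinned UMIs, fzd7a (-0.11) and xbp1 (-0.37) with at least 3 UMIs, and mapre1b (0.54) with 4 of 7 crest genes. The cause was not tested.

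At 18 hpf, 321 genes rose and 243 fell. The counts were 74 and 28 with DESeq2's Wald test, 153 and 85 with thinned cells, and 0 and 0 without the library block (478 at an unadjusted p under 0.05), and 121 fell with at least 1 tfec UMI in 4 libraries. Leaving out each of those 4 libraries gave 3 to 328 genes that rose and 0 to 228 that fell, the lowest without the second 18 hpf library. Of 873 values of named genes under the alternatives, 747 kept their call, 125 lost it (70 of these without the block), 1 gained it and 0 changed direction. Leaving out a library from the 2-library test leaves no residual degrees of freedom and was not run. The 18 hpf test compares the groups within each library through the block, and no analysis paired by replicate number was possible because the labels give no such numbers. Depth limits the 14 hpf comparison: 20 cells at 5000 UMIs resolve only changes of genes with at least 40 thinned UMIs in all.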

Other observations

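Pigment genes were also found in cells with no tfec UMI after 18 hpf. At 20 hpf mitfa was found in 32 of the 223 NC cells with 0 tfec UMIs (159 UMIs, 33.9 CPM) and gch2 in 37 of them (6482 UMIs, 1382 CPM). The 2 NC cells with at least 2 tfec UMIs at 20 hpf both had mitfa, gch2, pax7a, tfap2e and trpm1b, as counts from 2 cells with no replicate. At 20 hpf msx1b was at 282 CPM in these 2 cells, at 511 CPM in the 6 cells with 1 tfec UMI and at 69.1 CPM in cells with 0. twist1a had 0 UMIs in those 8 cells and 5774 UMIs in the cells with 0 tfec UMIs.

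At 12 hpf 8 NC cells had 1 tfec UMI each. They had 570 CPM of pax3a (453 to 707) against 338 CPM (315 to 362) in the 173 cells with 0, 236 CPM of axin2 (164 to 330) against 113 CPM (100 to 127), and 195 CPM of nkd1 (129 to 281) against 89.1 CPM (77.8 to 102). msx1b was at 341 CPM (252 to 450) and 330 CPM (308 to 353).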
